A study of Homo sapiens with 6 samples.

Results

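The genes described here encode sodium, calcium and potassium channels, measured as RNA in 22Rv1 cells, an established human prostate carcinoma cell line. They were chosen by symbol and by total count. Of 35322 gene symbols in the count table, 165 began with KCN, CACN or SCN followed by a digit or letter. From these, 18 antisense genes, 4 SCNN1 genes of the epithelial sodium channel and 4 symbols ending in P and a digit were dropped, which left 139. The last 4 are KCNIP1 to KCNIP4, which encode Kv channel-interacting proteins and fell to the wording of the rule although they are not pseudogenes. Of the 139, 20 had no count in any library and 54 had between 1 and 99 counts over the 6 libraries together. The other 65 had at least 100 and are the genes described. Just outside that limit lay KCNMB2 with 93 counts and KCNJ12 with 94, and just inside it KCNG3 with 119 and KCNN4 with 120. A total over all libraries can be reached through 1 group alone, and 19 of the 65 had under 100 counts in the 2 control libraries together. With the libraries of 1 group set aside, SCN4A, KCNC1, KCNG3, KCNH4, KCNH5, KCNMB3, KCNN4, KCNJ4 and KCNK15 would have missed the limit. These 9 are described by their counts and fitted values, with no p, since a gene that entered through the group where it is high had to differ. The count of genes that passed is likewise no measure of change.

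The study asked what follows when ZMYND11, a reader of histone modifications, is depleted in prostate cancer cells. It comprised 2 libraries of control cells, which the labels give as wild type without treatment, and 2 libraries from each of a pair of ZMYND11 knockdowns, called kd1 and kd2 after the labels. All were 22Rv1 cells grown in the same medium with serum, and the methods describe lentiviral shRNAs with selection by puromycin. The paper speaks of control shRNAs for such cells, so whether these controls carried a vector stands unsettled. Which shRNA each knockdown carried and whether a clone or a mixed culture was used are not given in the sources used here. Nor do the labels say that 2 libraries of a group came from separate cultures, so the p-values below measure only the spread between these libraries. That spread was estimated jointly over all groups, though it was not equal. Chi-squared per degree of freedom between the libraries of a group, which grows with spread beyond counting noise, was 2.37 in control, 3.97 in kd1 and 10.7 in kd2. The p-values of kd2 thus do not measure its own spread alone.

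Voltage-gated channels open when the membrane depolarises. Their pore is formed by an alpha subunit, and accessory subunits set how many channels reach the surface and how fast they open and close. Sodium channels (Nav) carry the upstroke of the action potential, calcium channels (Cav) couple depolarisation to calcium entry, and voltage-gated potassium channels (Kv) repolarise the membrane. In cells that fire no action potentials, such as most epithelial cells, potassium channels hold the resting potential and affect volume and growth, and transcripts of voltage-gated sodium channels have been described in prostate carcinoma lines.

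The label under which these genes were collected is broader than voltage gating. Of the 65 genes, 24 encode pore-forming subunits gated by voltage and 13 encode their accessory subunits. For 9 others voltage acts partly or through a modulatory subunit. The remaining 19 include inward rectifier (Kir), two-pore domain (K2P) and small-conductance calcium-activated potassium channels, which voltage does not open. By class there were 6 sodium channel genes, 12 calcium channel genes, 23 of the voltage-gated potassium class, 8 calcium- and sodium-activated potassium channel genes and 15 other potassium channel genes. The last gene, SCNM1, encodes a splicing factor and is no channel. It had the same count in every library as the readthrough gene TNFAIP8L2-SCNM1, so its value is uncertain.

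The libraries held between 26844128 and 38193748 counts, and edgeR's TMM factors were used to scale them. All log2 fold changes below come from edgeR's quasi-likelihood test with all 6 libraries in one fit, and every adjusted p is Benjamini-Hochberg adjusted over the 16510 genes tested. A gene is called changed where its adjusted p is under 0.05. ZMYND11 itself had 4283 and 4179 counts in control, 941 and 773 in kd1 and 770 and 779 in kd2. The log2 fold change of ZMYND11 was -2.35 (SE 0.07) in kd1 and -2.64 (SE 0.07) in kd2, with adjusted p of 5.00e-13 and 3.78e-13; in kd1 it was -1.71 after a correction for gene length and GC content. In a mixture of cells, fewer cells of a type and less RNA per cell cannot be told apart. All 10 luminal prostate epithelium markers were tested, with a summed level of CPM, which are counts scaled to the normalized size of their library, of 3174 to 3179 in control, 3501 to 3541 in kd1 and 4134 to 4143 in kd2. Of the 10, 6 were higher and 3 lower in kd1, and 6 higher and 4 lower in kd2, with medians of 0.27 and 0.19. Because many of these channels are best known from nerve and neuroendocrine cells, markers of those cells were summed as well. The 7 neuron markers, of which 6 were tested, summed to 128 to 133 CPM in control, 72.6 to 77.9 in kd1 and 60.5 to 62.4 in kd2. In each knockdown 1 of the 6 was lower and 2 were higher, with medians of 0.20 and 0.15. The lower one was MAP2, which held most of the sum in control (-1.90, SE 0.10, and -2.22, SE 0.10), and GAP43 was higher in both (2.93, SE 0.22, and 0.86, SE 0.26). The 7 neuroendocrine markers, 5 of them tested, summed to 297 to 313, 383 to 385 and 247 to 264 CPM, with 3 higher and 1 lower in kd1 and 1 higher and 3 lower in kd2. CHGA, the chromogranin A gene, was lower in both (-2.77, SE 0.24, and -2.23, SE 0.22). The 7 fibroblast markers, 6 of them tested, summed to 33.3 to 36.4 CPM in control, 86.8 to 87.2 in kd1 and 44.5 to 44.9 in kd2, with 2 higher and 1 lower in kd1 and 3 higher and 2 lower in kd2. Most of that sum was COL1A1, a collagen gene. The 6 muscle markers, 2 of them tested, summed to 5.09 to 5.25, 3.36 to 4.97 and 1.28 to 1.65 CPM, with 1 lower in kd2. For the 6 leukocyte markers, 4 of them tested, the sums were 2.69 to 2.96, 2.13 to 2.77 and 3.21 to 4.11 CPM, with 1 higher and 1 lower in kd1 and 1 higher and 2 lower in kd2. The 4 endothelial markers summed to 0.0292 to 0.196 CPM in the 6 libraries. KDR of that list, CD3E of the leukocyte list and DES of the muscle list had no count, while other members of these lists had counts. For comparison, 38.2% of all genes tested were higher and 39.8% lower in kd1, and 36.5% and 36.9% in kd2. No marker list was compared with these shares by a test. The part of these shifts in the values below was not tested.

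The promoters of 4 genes are shown because their genes carry results below. SCN8A is the sodium channel gene with the highest level in control cells. KCNK5 and KCNK17 are adjacent K2P genes, of which KCNK5 fell in both knockdowns and KCNK17 rose in kd1 and fell in kd2. KCNK3 rose in kd2 and holds part of the element bound by REST, a repressor of neuronal genes. Sequences are from RefSeq (GRCh38.p14), run 5′ to 3′ on the gene's strand and cover 250 bases before to 50 after the annotated start. Capitals mark motifs searched on both strands. The GC box is GGGCGG, which the factor SP1 is known to bind. The E-box is CACGTG, bound by MYC and MAX. For the TATA box the letters TATAAA were used, and for the left half-site of the REST element TTCAGCACC. The windows lie at chr12:51590983-51591282 on the plus strand (SCN8A), chr6:39229426-39229725 on the minus strand (KCNK5), chr6:39314370-39314669 on the minus strand (KCNK17) and chr2:26692472-26692771 on the plus strand (KCNK3).
SCN8A: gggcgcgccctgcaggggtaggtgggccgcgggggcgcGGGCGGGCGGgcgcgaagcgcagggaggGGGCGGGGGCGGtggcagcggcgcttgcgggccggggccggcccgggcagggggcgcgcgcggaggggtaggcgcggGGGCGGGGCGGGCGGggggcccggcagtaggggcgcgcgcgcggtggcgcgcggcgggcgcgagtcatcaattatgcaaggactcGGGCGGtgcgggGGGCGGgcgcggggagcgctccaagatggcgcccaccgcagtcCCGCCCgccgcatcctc
KCNK5: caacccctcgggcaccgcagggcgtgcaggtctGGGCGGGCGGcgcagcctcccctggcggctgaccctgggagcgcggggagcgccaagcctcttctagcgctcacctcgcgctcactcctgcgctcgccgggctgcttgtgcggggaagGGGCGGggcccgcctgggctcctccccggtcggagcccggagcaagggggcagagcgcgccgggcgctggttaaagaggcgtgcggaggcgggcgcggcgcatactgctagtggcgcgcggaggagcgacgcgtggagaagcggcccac
KCNK17: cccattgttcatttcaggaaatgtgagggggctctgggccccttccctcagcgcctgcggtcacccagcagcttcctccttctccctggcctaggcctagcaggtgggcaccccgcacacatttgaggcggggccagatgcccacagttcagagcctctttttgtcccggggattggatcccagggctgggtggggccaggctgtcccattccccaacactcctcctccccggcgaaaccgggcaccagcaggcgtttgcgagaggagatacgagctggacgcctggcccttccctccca
KCNK3: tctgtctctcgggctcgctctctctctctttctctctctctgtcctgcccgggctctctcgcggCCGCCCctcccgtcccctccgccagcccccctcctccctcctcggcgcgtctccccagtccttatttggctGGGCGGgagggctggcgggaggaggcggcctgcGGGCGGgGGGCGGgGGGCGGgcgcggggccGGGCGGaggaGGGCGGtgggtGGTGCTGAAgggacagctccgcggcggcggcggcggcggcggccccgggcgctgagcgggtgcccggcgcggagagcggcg

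The SCN8A window held 10 GC boxes at a GC content of 84.0%, the KCNK5 window 3 at 76.0%, and the KCNK3 window 7 at 78.7%. No searched motif lay in the KCNK17 window, whose GC content was 64.3%. RefSeq windows were found for 46 of the 65 genes, 74 windows in all, and were set beside all 35116 windows of the same length. A GC box lay in 58.1% of the channel gene windows and 45.0% of all windows, an E-box in 10.8% and 7.26%, and a TATA box in 9.46% and 11.5%. The REST half-site lay in 2 channel gene windows, those of KCNK3 and KCNH6 (2.7%), and in 0.376% of all windows. The median GC content was 65.7% in channel gene windows and 58.7% in all. Windows and not genes were counted, so a gene with several starts counts more than once. The windows of all genes include genes that were not tested here, and the shares were not compared by a test. These motif matches are a description of letters and not of bound sites.

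Most channel genes were low in control cells. Levels are compared between genes as normalized CPM per kb of exon, with exon lengths from GENCODE 44. Among the channel genes reported here, high control levels were those of CACNB3 (10.4 ± 0.227, SD, n = 2), CACNA2D1 (9.41 ± 0.472), KCNH6 (8.65 ± 0.689) and KCNK1 (8.21 ± 0.477). CACNB3 and CACNA2D1 are accessory calcium channel subunits, and the others form potassium channel pores. In kd1 high levels were those of CACNB3 (9.17), KCNK1 (5.89), KCNMB4 (5.52) and CACNB2 (5.47). In kd2 they were those of CACNB2 (6.89), KCNAB3 (6.60), CACNA2D1 (6.10) and KCNK1 (5.73). Neighbouring levels, such as those of CACNA2D1 and KCNH6 in control cells, lay within about the spread of their libraries.

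**Figure D1:**
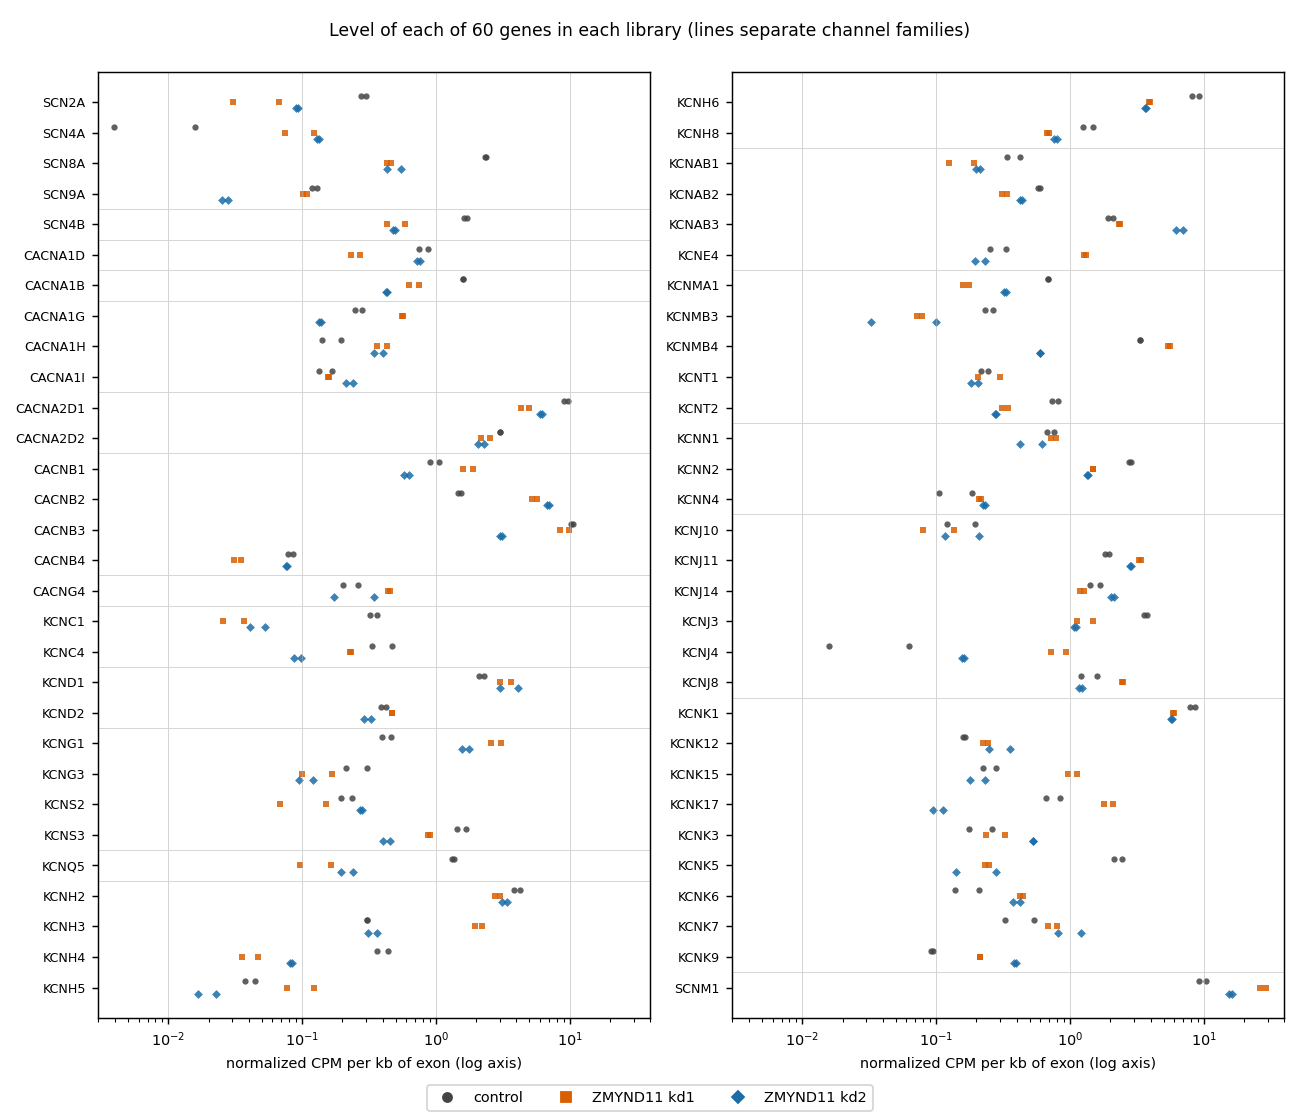
Level of 60 of the 65 genes in normalized CPM per kb of exon (log axis), with 1 point per library for control, ZMYND11 kd1 and ZMYND11 kd2, and lines between channel families. CACNB3 and CACNA2D1 lie near the top in control cells at 10.4 and 9.41, and CACNB2 moves up to 6.89 in ZMYND11 kd2.

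In both knockdowns channel genes moved in both directions, more of them down than up. In kd1, 31 of the 65 were lower than control (47.7%) and 22 higher (33.8%), while 12 did not pass. Among all genes tested, 39.8% were lower and 38.2% higher in that comparison. In kd2, 33 were lower (50.8%) and 17 higher (26.2%) and 15 did not pass, against 36.9% lower and 36.5% higher among all genes. Calls of at least 2-fold numbered 35 in kd1 (53.8%), where 42.1% of all genes passed that rule, and 34 in kd2 (52.3%), where 31.9% did. All these counts include the 9 genes named in the opening. Without those 9, 28 of 56 were lower and 18 higher at any fold in kd1, and 29 lower and 15 higher in kd2. These shares are set side by side without a test. The median log2 fold change of the 65 genes was -0.34 in kd1 and -0.46 in kd2, and that of all genes was -0.03 in each. Between the knockdowns, 15 genes were higher in kd2 (23.1%) and 20 lower (30.8%), against 34.9% and 33.8% of all genes, with medians of -0.10 and 0.02. Both comparisons with control share the same 2 control libraries, so their values are given side by side and no overlap between them is counted as a result.

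The classes are given side by side, without a test of the difference between them. The 24 voltage-gated pore-forming genes had 6 higher (25%) and 14 lower (58.3%) in kd1 and 4 higher (16.7%) and 15 lower (62.5%) in kd2, with medians of -0.90 and -1.0. Without those that needed 1 group to reach the limit, 4 of 20 were higher and 12 lower in kd1, and 3 higher and 13 lower in kd2. The 15 Kir and K2P genes had 8 higher (53.3%) and 4 lower (26.7%) in each knockdown, with medians of 0.78 and 0.42. Among all genes, 38.2% were higher and 39.8% lower in kd1, and 36.5% and 36.9% in kd2. Without KCNJ4 and KCNK15, which needed the kd1 libraries, 6 of 13 were higher and 4 lower in kd1 (median 0.54), and 7 higher and 4 lower in kd2. A limit on the total count admits low genes that rise more readily than low genes that do not, and several of the others had few counts in control, such as KCNK9 with 19 and 20.

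**Figure D2:**
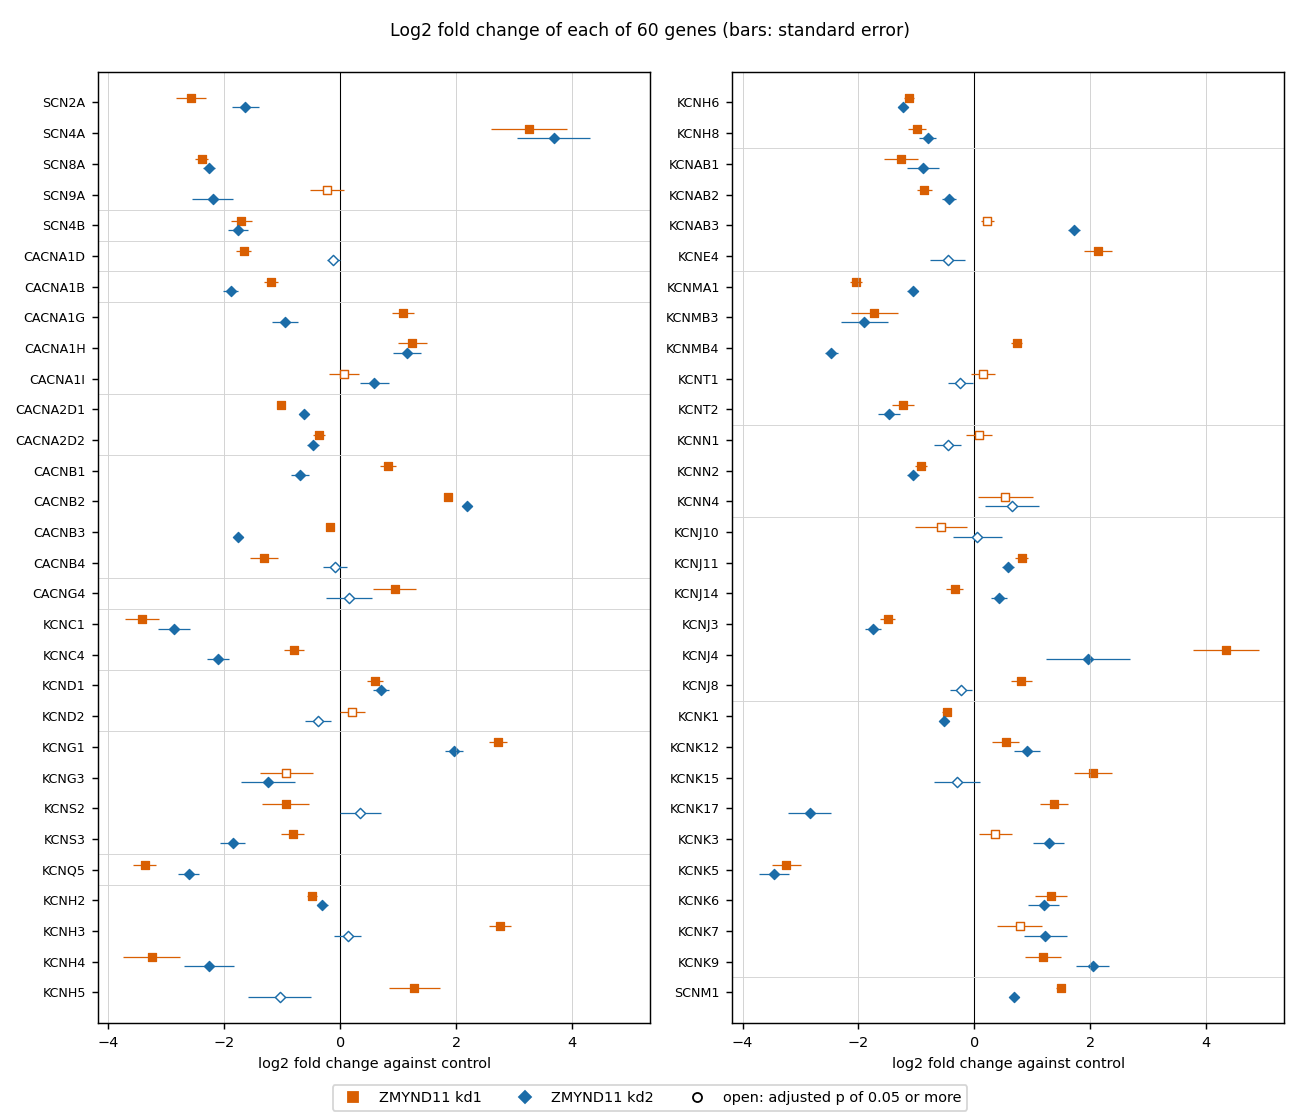
Log2 fold change against control of 60 of the 65 genes in ZMYND11 kd1 and ZMYND11 kd2, with standard errors; open symbols have an adjusted p of 0.05 or more, and lines separate channel families. KCNK5 lies at -3.25 and -3.46, and KCNK17 lies right of 0 in ZMYND11 kd1 and at -2.84 in ZMYND11 kd2.

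Among the sodium channel genes, the main alpha subunit was lower in both knockdowns. SCN8A, on chromosome 12 from 51590266 to 51812864 (GRCh38, plus strand), encodes an alpha subunit found at axon initial segments and nodes. It had 1374 and 1369 counts in control cells, 296 and 244 in kd1 and 291 and 356 in kd2. Every knockdown library lay far below both controls. Its log2 fold change was -2.39 (SE 0.11, adjusted p = 5.41e-11) in kd1 and -2.27 (SE 0.11, adjusted p = 1.37e-10) in kd2, and the knockdowns did not differ by the test (difference 0.13, SE 0.12, adjusted p = 0.369). It made up 84.8% ± 0.695 of the summed alpha subunit level in control cells, 64.0% ± 6.89 in kd1 and 65.9% ± 3.54 in kd2 (SD, n = 2). The summed alpha level was 2.78 and 2.75 CPM per kb in control libraries and between 0.665 and 0.80 in the 4 knockdown libraries.

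The other alpha genes were low. SCN2A, a neuronal alpha subunit, had 202 and 223 counts in control cells, 25 and 48 in kd1 and 78 and 77 in kd2, a change of -2.57 (SE 0.26, adjusted p = 4.30e-07) and -1.64 (SE 0.24, adjusted p = 1.91e-05). SCN9A, known for its part in pain-sensing neurons, had 50 and 56, 48 and 45, and 14 and 12 counts. It fell in kd2 (-2.20, SE 0.36) and stood at -0.23 (SE 0.30, adjusted p = 0.483) in kd1. SCN4A, the skeletal muscle alpha subunit, had 4 and 1 counts in control, 21 and 30 in kd1 and 38 and 38 in kd2. Both knockdowns lay above control, from control counts too low to size the change (2.58 to 4.92 with either control library left out), and the gene reached 100 counts only through the knockdown libraries. SCN1A, SCN3A and SCN11A were among the symbols below 100 counts.

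SCN4B encodes a beta subunit, a single-pass protein that modulates the alpha subunit. It had 292 and 282 counts in control cells, 83 and 98 in kd1 and 96 and 96 in kd2, a change of -1.71 (SE 0.17, adjusted p = 3.95e-07) and -1.77 (SE 0.17, adjusted p = 3.33e-07). When the fit was corrected for GC content and gene length, the changes in kd1 were -1.69 for SCN8A and -1.71 for SCN2A, and both stayed called. Without the second kd1 library SCN2A stood at -3.22.

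**Figure D3:**
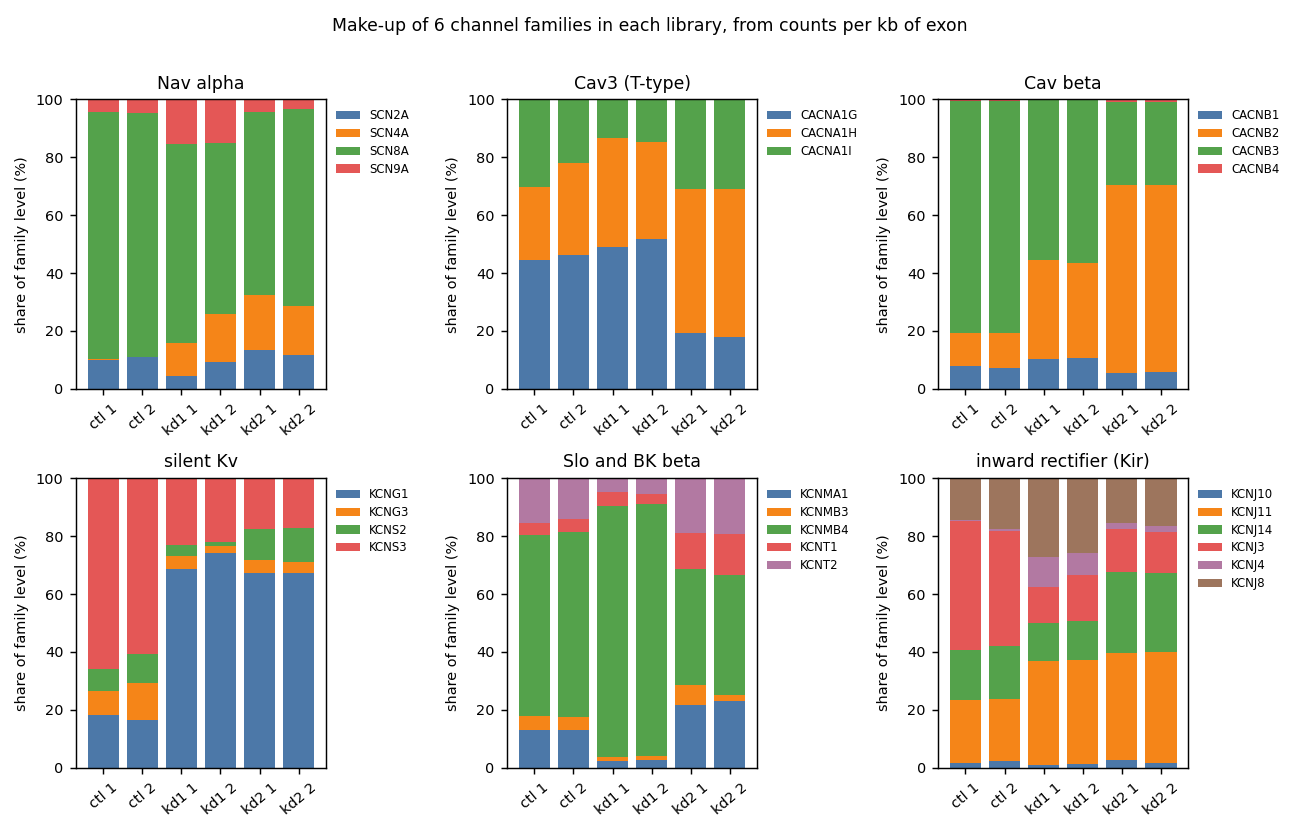
Share of each gene in the summed level (normalized CPM per kb of exon) of its family, in percent, for 6 families and each of the 6 libraries (ctl, control). Cav beta passes from 80.2% CACNB3 in control to 64.8% CACNB2 in ZMYND11 kd2.

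The calcium channel genes were led by accessory subunits. CACNA2D1, whose alpha2delta protein raises the number of channels at the surface and binds gabapentin, had 2719 and 2585 counts in control cells, 1541 and 1170 in kd1 and 1969 and 1944 in kd2. All knockdown libraries were below both controls, by -1.02 (SE 0.07, adjusted p = 7.34e-09) and -0.63 (SE 0.07, adjusted p = 1.77e-06). With the GC content and length correction the value in kd1 was -0.41. CACNA2D2 fell by 0.36 (SE 0.10) in kd1, a call that was lost without the second kd1 library, and by 0.47 (SE 0.10) in kd2.

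The beta subunits, which bind the pore inside the cell and bring it to the membrane, changed in make-up, and CACNB2 took the lead from CACNB3 in kd2 but not in kd1. CACNB2 had 499 and 539 counts in control, 1993 and 1892 in kd1 and 2710 and 2690 in kd2. It rose by 1.86 (SE 0.07, adjusted p = 1.42e-11) and 2.19 (SE 0.07, adjusted p = 5.13e-12), or 3.63-fold and 4.57-fold, and its corrected value in kd1 was 2.47. CACNB3 had 2296 and 2272 counts in control, 2060 and 2087 in kd1 and 770 and 765 in kd2. It fell by 1.76 (SE 0.08, adjusted p = 8.25e-11) in kd2. In kd1 the change was -0.18 (SE 0.07, adjusted p = 0.0348), a call lost without the first kd1 library (-0.07), without either control library (-0.16 and -0.21) and in DESeq2. CACNB3 thus made up 80.2% ± 0.0367 of the summed beta level in control, 55.9% ± 0.775 in kd1 and 28.8% ± 0.0540 in kd2, while CACNB2 made up 11.6% ± 0.715, 33.4% ± 1.07 and 64.8% ± 0.162.

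CACNB1 and CACNB4 differed between the knockdowns. CACNB1 had 228 and 200 counts in control, 382 and 395 in kd1 and 146 and 154 in kd2. It rose by 0.82 (SE 0.14, adjusted p = 8.89e-05) in kd1 and fell by 0.70 (SE 0.15, adjusted p = 0.000891) in kd2. CACNB4 fell in kd1 (-1.31, SE 0.24), a call lost with the GC content and length correction (-0.42), and stood at -0.09 (SE 0.21, adjusted p = 0.702) in kd2. CACNG4, a gamma subunit gene, had 22 and 29, 53 and 48, and 22 and 42 counts, and its rise in kd1 (0.94, SE 0.38, adjusted p = 0.0347) was lost without any 1 of the 4 libraries compared.

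Of the pore-forming calcium channel genes, the N-type gene fell in both knockdowns. CACNA1B, whose channel releases transmitter at synapses, had 476 and 487 counts in control, 213 and 219 in kd1 and 150 and 145 in kd2. The 3 groups did not overlap, and the changes were -1.20 (SE 0.12, adjusted p = 5.09e-07) and -1.89 (SE 0.13, adjusted p = 8.13e-09). CACNA1D, an L-type channel gene, had 508 and 442 counts in control, 177 and 133 in kd1 and 495 and 499 in kd2. It fell by 1.67 (SE 0.13, adjusted p = 2.15e-08) in kd1, or by 1.06 with the correction, and lay at -0.12 (SE 0.12, adjusted p = 0.355) in kd2. The other L-type genes, CACNA1C, CACNA1F and CACNA1S, were below 100 counts.

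The T-type channels, which open near the resting potential, were low and changed in make-up. CACNA1G had 76 and 88 counts in control, 193 and 166 in kd1 and 48 and 48 in kd2, a rise of 1.08 (SE 0.19, adjusted p = 9.60e-05) and a fall of 0.96 (SE 0.22, adjusted p = 0.00120). CACNA1H had 37 and 52, 127 and 92, and 106 and 118 counts and rose in both (1.24, SE 0.24, and 1.15, SE 0.24). CACNA1G made up 45.4% ± 1.11 of the T-type level in control, 50.3% ± 1.97 in kd1 and 18.6% ± 1.04 in kd2. CACNA1I was called higher in kd2 (0.59, SE 0.25, adjusted p = 0.0457), a call lost without either control library and without either kd2 library.

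In the voltage-gated potassium class, 14 of 23 genes were lower in each knockdown (60.9%), while 5 were higher in kd1 (21.7%) and 3 in kd2 (13%). Among all genes, 39.8% and 36.9% were lower and 38.2% and 36.5% higher. Without those of the 9 genes that fall in this class, 12 of 19 were lower in kd1 and 11 in kd2. KCNQ5, a Kv7 gene whose current steadies the membrane of neurons and smooth muscle, had 452 and 476 counts in control, 37 and 55 in kd1 and 79 and 93 in kd2. Its changes were -3.37 (SE 0.20, adjusted p = 9.60e-10) and -2.62 (SE 0.18, adjusted p = 8.68e-09), with a corrected value of -2.76 in kd1.

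Kv3 channels allow rapid firing. KCNC1 had 159 and 144 counts in control, 18 and 11 in kd1 and 21 and 26 in kd2, with fitted values of -3.43 (SE 0.29) and -2.87 (SE 0.27), and it reached 100 counts only through the control libraries. KCNC4, another Kv3 gene, fell by 0.80 (SE 0.17) and 2.11 (SE 0.19), and the first of these calls was lost with the GC content and length correction.

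Among the EAG, ERG and ELK genes, KCNH6 led in control cells and fell in both knockdowns. It encodes an ERG channel and had 1046 and 1195 counts in control, 555 and 498 in kd1 and 549 and 531 in kd2, which gave -1.14 (SE 0.09, adjusted p = 1.69e-08) and -1.24 (SE 0.09, adjusted p = 9.74e-09). KCNH2, the hERG channel of the heart, fell by 0.49 (SE 0.09) and 0.31 (SE 0.09), and the second call was lost without the second control library and with the correction. KCNH8, an ELK channel gene, was lower in both knockdowns. KCNH4, also of the ELK type, had 42 and 52 counts in control, 6 and 4 in kd1 and 11 and 11 in kd2, with values of -3.25, or -3.85 with the correction, and -2.27, and needed the control libraries to reach 100 counts. KCNH5, an EAG gene with 14 and 17 counts in control, stood at 1.27 (SE 0.44) in kd1, or 2.01 with the correction, and needed the kd1 libraries to reach 100 counts. KCNH3, also of the ELK type, rose in kd1, from 42 and 43 counts in control to 301 and 293, against 58 and 48 in kd2. Its changes were 2.76 (SE 0.19, adjusted p = 4.88e-09), 2.13 with the correction, and 0.13 (SE 0.23, adjusted p = 0.625), and they differed by -2.63 (SE 0.18, adjusted p = 1.16e-08), or -2.01 with the correction.

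The silent Kv genes changed in make-up. KCNG1 encodes a silent Kv subunit, which forms no channel alone and modifies Kv2 channels, and it had 76 and 66 counts in control, 478 and 487 in kd1 and 341 and 290 in kd2. The changes were 2.72 (SE 0.16, adjusted p = 6.45e-10) and 1.96 (SE 0.16, adjusted p = 5.36e-08). KCNS3, another silent subunit, fell by 0.82 (SE 0.20) and 1.85 (SE 0.21). The share of KCNG1 in the silent Kv level was 17.3% ± 1.16 in control, 71.4% ± 3.79 in kd1 and 67.2% ± 0.119 in kd2. KCNS2 was called lower in kd1 only near the threshold (-0.94, SE 0.40, adjusted p = 0.0459), and that call was lost without either control library and without the second kd1 library, while without the first its value was -1.64. KCNG3, which needed each group to reach 100 counts, stood at -1.25 (SE 0.47) in kd2.

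KCND1, a Kv4 gene of the transient outward current, rose in both knockdowns, from 425 and 393 counts to 747 and 539 and to 653 and 854. The changes were 0.60 (SE 0.14, adjusted p = 0.00137) and 0.70 (SE 0.14, adjusted p = 0.000402), and the first was 0.24 and not called when libraries were scaled by their totals alone. KCND2, the other Kv4 gene, did not pass against control. No Kv1 gene reached 100 counts.

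The accessory genes of Kv channels split between the knockdowns. KCNAB3, a Kv beta subunit gene, had 293 and 277 counts in control, 366 and 323 in kd1 and 1024 and 1113 in kd2. It rose by 1.72 (SE 0.10, adjusted p = 1.52e-09) in kd2 and stood at 0.23 (SE 0.11, adjusted p = 0.0758) in kd1, and the difference was 1.5 (SE 0.10, adjusted p = 7.41e-09). KCNE4, whose small protein inhibits several Kv channels, had 29 and 39, 162 and 147, and 26 and 30 counts. It rose by 2.13 (SE 0.24, adjusted p = 1.38e-06) in kd1 and stood at -0.46 (SE 0.30, adjusted p = 0.179) in kd2. KCNAB1 and KCNAB2, the other Kv beta genes, were lower in both. The call of KCNAB1 in kd2 was lost without the first control library and that of KCNAB2 with the correction.

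**Figure D4:**
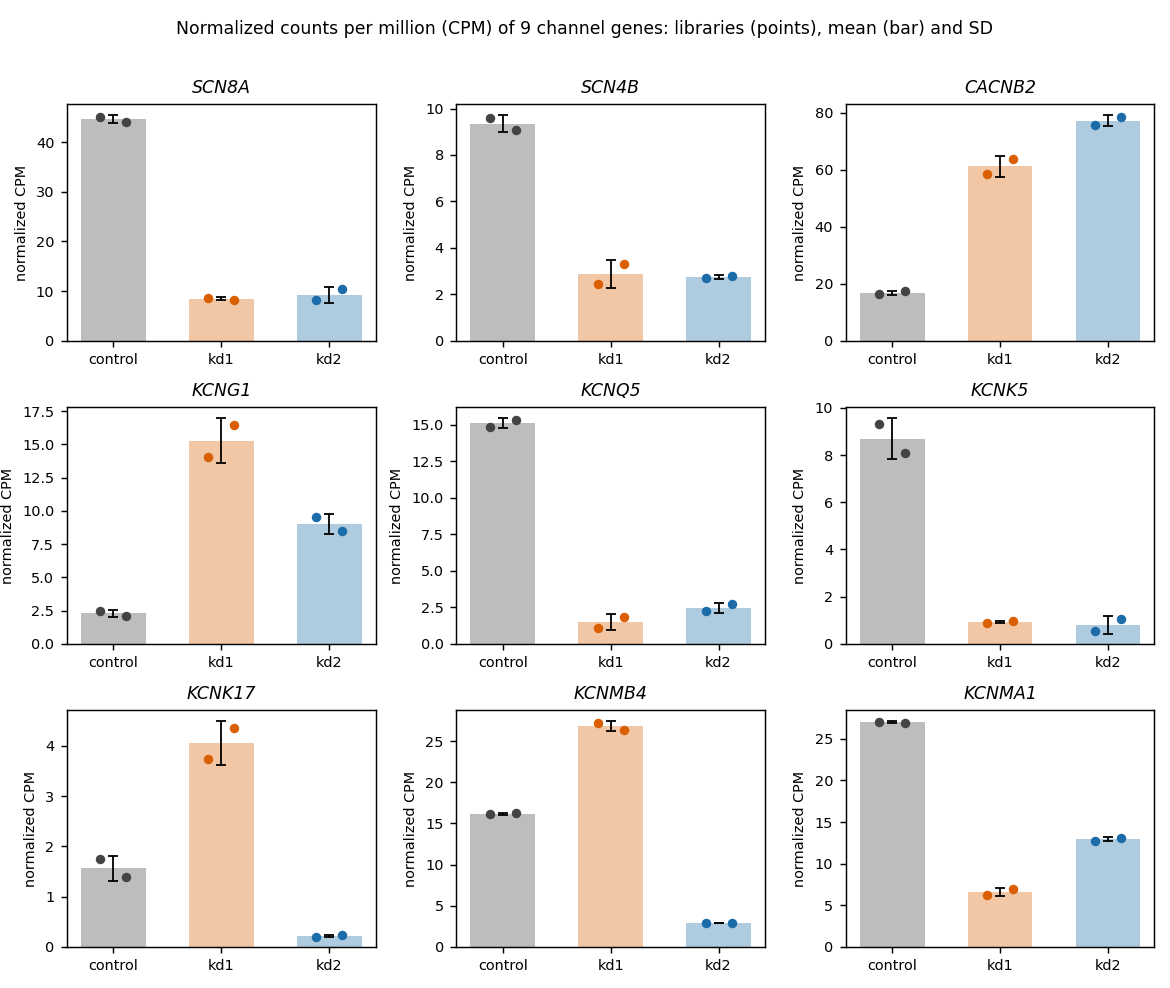
Normalized CPM of 9 channel genes, with 1 point per library, bars for the mean and error bars for the SD (n = 2), each axis from 0. SCN8A, SCN4B, KCNQ5, KCNK5 and KCNMA1 lie below control in both knockdowns, CACNB2 and KCNG1 above, and KCNK17 and KCNMB4 above in ZMYND11 kd1 (4.05 and 26.8) and below in ZMYND11 kd2 (0.215 and 2.92).

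Of the calcium- and sodium-activated potassium channel genes, KCNMB4 rose in kd1, where 4 of the 8 were lower (50%) and 3 did not pass, and in kd2 5 were lower (62.5%) and 3 did not pass. Among all genes, 39.8% were lower in kd1 and 36.9% in kd2. The large-conductance BK channel is made of the KCNMA1 pore and beta subunits such as KCNMB4 that tune its calcium sensitivity. KCNMA1 had 824 and 837 counts in control, 213 and 204 in kd1 and 455 and 448 in kd2. It fell by 2.04 (SE 0.10, adjusted p = 1.54e-10) and 1.07 (SE 0.09, adjusted p = 1.13e-07), and with the GC content and length correction by 1.23 and 0.45. KCNMB4 had 490 and 505 counts in control, 925 and 781 in kd1 and 104 and 100 in kd2. It rose by 0.73 (SE 0.09, adjusted p = 3.82e-06) in kd1 and fell by 2.47 (SE 0.12, adjusted p = 1.27e-10) in kd2. The pore and its beta subunit thus moved apart in kd1 and both fell in kd2.

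KCNMB3, another BK beta gene, had 73 and 65, 24 and 19, and 32 and 10 counts. It reached 100 counts only through the control libraries. Its value in kd1 was -1.73 (SE 0.41), or -1.13 with the correction. In kd2 it was -1.90 (SE 0.41), -2.93 without the first kd2 library and -1.32 without the second, and 47.6% of its exon bases overlap other genes. KCNN2, a small-conductance channel gene, fell by 0.93 (SE 0.11) and 1.06 (SE 0.11). KCNT2, a sodium-activated channel gene, fell by 1.24 (SE 0.19) and 1.47 (SE 0.19). KCNT1, KCNN1 and KCNN4 did not pass against control.

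The K2P genes, whose channels leak potassium at rest, included both the deepest fall in kd2 and a gene that changed sign between knockdowns. KCNK5, an acid-sensitive K2P channel, lies on chromosome 6 from 39188971 to 39229475 and had 283 and 251 counts in control, 30 and 28 in kd1 and 19 and 36 in kd2. It fell by 3.25 (SE 0.25, adjusted p = 1.80e-08) and 3.46 (SE 0.25, adjusted p = 1.47e-08), or 9.48-fold and 11-fold. KCNK17, on the same strand with 69526 bases between them, had 53 and 43 counts in control, 127 and 129 in kd1 and 7 and 8 in kd2. It rose by 1.37 (SE 0.25, adjusted p = 0.000137) in kd1, or by 0.58 with the correction (adjusted p = 0.0463), and fell by 2.84 (SE 0.38, adjusted p = 8.53e-06) in kd2. The knockdowns differed by -4.21 (SE 0.33, adjusted p = 4.47e-08), the widest gap among the 65 genes, and by -3.62 with the correction. The 2 adjacent genes, whose start windows are printed above, therefore moved alike in kd2 and apart in kd1.

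Several K2P genes rose from low counts. KCNK9, an acid-sensitive TASK channel, had 19 and 20, 49 and 43, and 92 and 91 counts and rose by 1.19 (SE 0.31, adjusted p = 0.00319) and 2.04 (SE 0.29, adjusted p = 1.79e-05). KCNK3, a TASK channel with the REST half-site in its start window, had 49 and 34, 50 and 60, and 118 and 112 counts. It rose by 1.28 (SE 0.26, adjusted p = 0.000518) in kd2 and stood at 0.36 (SE 0.29, adjusted p = 0.257) in kd1. REST itself fell by 0.62 (SE 0.06) in kd1 and 0.32 (SE 0.06) in kd2. KCNH6, the other gene with that half-site, fell in both knockdowns. Whether REST bears on either gene was not tested.

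KCNK6, a weakly inward rectifying K2P channel, rose in both (1.32, SE 0.27, and 1.19, SE 0.27). KCNK15 had 17 and 22 counts in control, 82 and 84 in kd1 and 16 and 20 in kd2, and reached 100 counts only through kd1. Its fitted value in kd1 was 2.04 (SE 0.33), or 1.2 with the correction, and 22.4% of its exon bases overlap other genes. KCNK7 rose by 1.22 (SE 0.37, adjusted p = 0.00866) in kd2, a call lost without the second control or the first kd2 library. KCNK12 rose in kd2 (0.91, SE 0.22), and its rise in kd1 (0.54, SE 0.23, adjusted p = 0.0442) was lost without any 1 of the 4 libraries compared. KCNK1, the most abundant K2P gene, fell by 0.48 (SE 0.08) and 0.52 (SE 0.08).

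Of the Kir genes, which pass potassium more easily inward, KCNJ11 was among the more abundant. It forms the pore of the ATP-sensitive channel and rose from 276 and 300 counts to 549 and 496 and to 492 and 488, by 0.81 (SE 0.10, adjusted p = 4.96e-06) and 0.58 (SE 0.10, adjusted p = 0.000168). KCNJ3, a channel opened by G proteins, fell from 558 and 549 counts to 187 and 216 and to 194 and 181, by 1.5 (SE 0.13, adjusted p = 1.01e-07) and 1.75 (SE 0.14, adjusted p = 2.92e-08). KCNJ3 made up 42.2% ± 3.73 of the Kir level in control and 14.1% ± 2.42 and 14.5% ± 0.218 in the knockdowns, where KCNJ11 led with 35.9% ± 0.0213 and 37.6% ± 1.06.

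KCNJ14 was called lower in kd1 (-0.34, SE 0.15, adjusted p = 0.0451) and higher in kd2 (0.42, SE 0.14, adjusted p = 0.0135). Both calls were lost in the DESeq2 Wald test. The first was also lost with the replicate block, without the second control library and without either kd1 library, and the second with scaling by library totals and without the first control library, and 30.6% of its exon bases overlap other genes. KCNJ8, the other ATP-sensitive pore gene, rose in kd1 (0.81, SE 0.18), and KCNJ10, a Kir gene of glia, did not pass against control. KCNJ4 had 1 and 4 counts in control, 66 and 44 in kd1 and 12 and 11 in kd2, and reached 100 counts only through kd1, with 28 counts in the other 4 libraries. Without the first control library the log2 fold changes were 3.69 and 1.32, and without the second 5.55 and 3.18.

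In all, 5 genes were called in opposite directions in the 2 knockdowns, namely CACNA1G, CACNB1, KCNMB4, KCNJ14 and KCNK17, which is 7.69% of the 65, against 9.1% of all genes tested. For each of the 5 the difference between the knockdowns also passed. All but KCNJ14 were higher in kd1 and lower in kd2.

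Proteins that bind or modulate these channels were read from a list of 36, of which 29 were tested. In kd1, 13 were higher (44.8%) and 11 lower (37.9%) with a median of 0.03, against 38.2% and 39.8% of all genes. In kd2, 8 were higher (27.6%) and 13 lower (44.8%) with a median of -0.37, against 36.5% and 36.9%. The largest called rises in kd1 were of CNTN1, a contactin that binds sodium channel beta subunits (2.3, SE 0.07), and RRAD, a small G protein that inhibits calcium channels (2.3, SE 0.48). In kd2 they were of RRAD (2.31, SE 0.48) and ATP1B1, a sodium pump beta subunit (1.82, SE 0.05). Falls included NFASC, which anchors sodium channels at nodes (-1.82, SE 0.09), in kd1, and CABP1, a calcium-binding regulator (-2.75, SE 0.79), and NFASC (-1.75, SE 0.09) in kd2.

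Other cation channels were read from a list of 46, of which 26 were tested. In kd1, 7 were higher (26.9%) and 14 lower (53.8%) with a median of -1.28, against 38.2% and 39.8% of all genes. In kd2, 6 were higher (23.1%) and 18 lower (69.2%) with a median of -1.20, against 36.5% and 36.9%. HCN4 and HCN2, pacemaker channels, had the largest rises in each knockdown. HCN2 had 675 and 612 counts in control, 2834 and 2656 in kd1 and 2897 and 2764 in kd2 (2.05 and 1.95, each SE 0.07), while HCN4 rose from 3 and 2 counts to 50 and 58 and to 11 and 19. Falls included TRPA1, an irritant receptor, from 72 and 67 counts to 4 and 0 and to 0 and 11, and HCN3 in kd1 (-2.18, SE 0.22).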

How the data were processed

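RNA was sequenced in 6 libraries of 22Rv1 cells. The authors checked reads with FastQC (0.11.9), trimmed them, and aligned them to hg38 with STAR (2.7.9a); the submitters' processing notes also name HTSeq (0.13.5). The count of reads on each gene symbol was deposited as such, without normalization by the authors; annotation, strand setting and treatment of multiply matching reads are not given in the sources used here. Samples were grouped by their labels.

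Differences were tested in edgeR 4.0.16 (R 4.3.3; TMM, filterByExpr, quasi-likelihood test without robust estimation, 3 residual degrees of freedom, Benjamini-Hochberg adjustment). Exon lengths and positions came from GENCODE 44 (GRCh38). Library totals, from 26844128 to 38193748, limit how precise low counts are. On simulated counts the test was checked for recovery of known changes. The channel genes and all gene lists were chosen with earlier results of these data known. Full statistics were given for up to 8 rises and falls per knockdown among called genes with a mean log2 CPM of at least 0 and both libraries of the knockdown above or below both controls, for the highest gene per family, for genes called in opposite directions and for ZMYND11. Some genes that the rules select are not reported here; counts and medians over all 65 genes include them. Counts of genes called in both knockdowns were planned but are not reported, since both comparisons share the control libraries. Alternatives were other scalings, filters and tests (DESeq2 1.42.0), a replicate block, a fit of the compared groups alone, a GC content and gene length correction (lowess span 0.3), and each library left out in turn. Figures were drawn with matplotlib.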

Additional observations from a re-analysis of the deposited data

Results flagged for a closer look

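For 5 genes the change against control went in opposite directions in the 2 knockdowns, and the test of the difference itself passed. They are 7.69% of the 65 genes, below the 9.1% among all genes tested, so the number of them is no result about channel genes. As log2 fold change in kd2 minus kd1, the differences were -2.04 for CACNA1G (SE 0.20), -1.52 for CACNB1 (SE 0.15), -3.20 for KCNMB4 (SE 0.11), 0.76 for KCNJ14 (SE 0.14) and -4.21 for KCNK17 (SE 0.33). For KCNJ14 both calls against control were lost in the DESeq2 Wald test, and the one in kd1 also with the replicate block, while the difference between the knockdowns passed in both. The counts behind them do not overlap between the knockdowns in any of the 5. With 2 libraries per group no single library could be tested for standing apart from the others.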

How the results depend on the processing

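The counts of channel genes higher and lower in each comparison stayed within 1.5 times their values under every alternative that was run, also without the 9 genes that needed 1 group to reach 100 counts, an alternative chosen after seeing the data. With each library left out in turn, genes higher in kd1 numbered 19 to 23 and lower 28 to 32, those higher in kd2 14 to 17 and lower 31 to 33, and between the knockdowns 11 to 19 were higher and 20 to 21 lower in kd2. No gene called against control changed sign under any alternative. Scaling by library totals alone moved the median of all genes by -0.35 in kd1, -0.17 in kd2 and 0.18 between them. It turned uncalled values of KCNAB3 in kd1 to -0.13, and of CACNG4 and KCNH3 in kd2 to -0.021 and -0.040. With each library left out in turn, CACNG4 in kd2 lay between -0.42 and 0.56 (-0.03 without control replicate 1). The GC content and gene length correction turned the uncalled KCNK7 in kd1 to -0.42 and CACNA1D in kd2 to 0.30, and between the knockdowns the called CACNA2D1 to -0.11 and CACNB2 to -0.022; the cause was not tested. Replicate numbers did not pair the samples, with correlations of same-numbered deviations of 0.01, -0.03 and -0.04. With a replicate block 21 genes were higher and 30 lower in kd1, and 16 and 33 in kd2. The block ended the calls of KCNS2, KCNJ14 and KCNK12 in kd1 and of CACNA1I in kd2. With 2 libraries per group, small changes in genes of few counts were not detectable.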
